A study of Homo sapiens with 4 samples.

Results

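The genes described here are 9 markers of the luminal breast epithelium, which were chosen by symbol: the secretory proteins AGR2 and TFF3, the surface proteins CD24 and MUC1, and the transcription factors ESR1, FOXA1, GATA3, ELF3 and SPDEF. They were read by every probe set annotated with exactly 1 gene symbol that belonged to one of them, which gave 34 of the 41097 probe sets with 1 symbol and of the 54675 on the Affymetrix U133 Plus 2 array. The genes were chosen with earlier results of these data known, so counts of them beside shares over all probe sets are a description. The cells were MDA-MB-231, an established breast cancer line of mesenchymal-like character that lacks the oestrogen receptor, maintained in Leibovitz medium with serum. The first was a stable knockdown of ZEB2 by a transduced short hairpin RNA (shRNA), and the second a stable control carrying the vector pLVTH. These form the stable pair. The third was a transient knockdown of ZEB2 by pooled small interfering RNAs (siRNA) at 20 nM, and the fourth a control given siRNA against luciferase at 20 nM, in which ZEB2 was not targeted. These form the transient pair, whose transfection medium was removed at 24 hours and which then stayed another 48 hours in culture. Whether the stable lines were clones or pools was not given in the labels. From the stable cultures 2 µg of RNA was labelled and from the transfected cultures 100 ng, so method, culture and labelling differ together and cannot be told apart. With 1 array for each of the 4 groups, a knockdown cannot be set against any spread between replicates, and precision is limited by the number of arrays.

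Luminal cells line the milk ducts and secrete into them. Their identity rests on a small circuit of factors: FOXA1 opens chromatin for the oestrogen receptor ESR1, and GATA3 maintains the luminal fate together with both. ELF3 and SPDEF are epithelial members of the ETS family, and SPDEF drives secretory cells to make mucus. AGR2 is a disulphide isomerase of the endoplasmic reticulum that helps mucins to fold, TFF3 is a small trefoil peptide released with mucus, MUC1 is a membrane-bound mucin, and CD24 is a heavily glycosylated protein held in the membrane by a lipid anchor. ZEB2 is a zinc-finger repressor of epithelial genes that binds CACCT sequences, among them the E-box CACCTG of the E-cadherin promoter.

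All values are log2 expression per probe set, on which 1 unit is 2-fold, and differences are knockdown minus control. A probe set was taken as measured if at least 1 array reached a level of 4.77, which 40% of all values lie below. Of the 34 probe sets 29 reached it, and 5 did not: both probe sets of FOXA1 and 3 of the 9 of ESR1. ZEB2, the target, read 3.52 in the shRNA knockdown and 6.12 in its control, and 3.51 in the siRNA knockdown and 6.56 in its control, on its brightest probe set. The mesenchymal markers VIM, CD44, AXL, CAV1 and MSN were above 12.1 on every array. Others, counted further below, read lower, down to SPARC at 4.45 to 4.88. The 6 luminal markers KRT8, KRT18, KRT19, EPCAM, ERBB3 and XBP1 also reached the filter level on every array. They ranged from KRT18 at 12.18 to 12.43 down to ERBB3 at 4.89 to 7.49. Of the other receptor genes that class breast cancers, PGR stayed between 3.08 and 3.50, below the filter level on every array, and ERBB2 between 7.83 and 7.97, above it on every array. Of 4 leukocyte markers PTPRC was below the filter level on all 4 arrays, at 3.44 to 3.87, CD3E and CD14 were above it on all 4, at 5.17 to 5.52 and 4.98 to 7.30, and LYZ reached it on 2.

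Promoter windows of 4 of the genes are shown because CD24, AGR2, MUC1 and ELF3 were among the genes that differed most between arrays and because their windows hold the ZEB-type E-box. Each runs from 250 bases before to 50 after a RefSeq transcription start in GRCh38.p14, 5′ to 3′ on the gene's strand, and capitals mark every CACCTG or CACCT on either strand (read as CAGGTG or AGGTG on the opposite one). The windows are chr7:16804950-16805249 on the minus strand for AGR2, chr6:106973990-106974289 on the minus strand for the third of 3 CD24 starts, chr1:202010337-202010636 on the plus strand for ELF3 and chr1:155192866-155193165 on the minus strand for the first of 2 MUC1 starts.
AGR2: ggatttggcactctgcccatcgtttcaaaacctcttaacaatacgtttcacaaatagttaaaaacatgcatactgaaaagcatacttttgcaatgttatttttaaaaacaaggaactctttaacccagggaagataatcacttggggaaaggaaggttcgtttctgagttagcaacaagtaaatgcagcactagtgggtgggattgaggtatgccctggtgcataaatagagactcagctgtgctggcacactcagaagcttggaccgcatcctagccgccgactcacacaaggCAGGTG
CD24: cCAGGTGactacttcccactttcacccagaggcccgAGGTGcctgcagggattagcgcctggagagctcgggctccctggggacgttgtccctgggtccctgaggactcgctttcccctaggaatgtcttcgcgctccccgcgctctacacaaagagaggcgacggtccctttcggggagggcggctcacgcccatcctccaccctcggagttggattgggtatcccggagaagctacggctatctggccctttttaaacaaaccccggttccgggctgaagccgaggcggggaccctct
ELF3: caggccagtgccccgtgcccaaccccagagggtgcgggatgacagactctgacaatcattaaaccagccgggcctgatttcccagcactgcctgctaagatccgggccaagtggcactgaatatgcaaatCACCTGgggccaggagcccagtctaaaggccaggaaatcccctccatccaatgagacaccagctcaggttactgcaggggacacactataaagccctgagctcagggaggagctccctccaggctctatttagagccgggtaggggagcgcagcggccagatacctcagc
MUC1: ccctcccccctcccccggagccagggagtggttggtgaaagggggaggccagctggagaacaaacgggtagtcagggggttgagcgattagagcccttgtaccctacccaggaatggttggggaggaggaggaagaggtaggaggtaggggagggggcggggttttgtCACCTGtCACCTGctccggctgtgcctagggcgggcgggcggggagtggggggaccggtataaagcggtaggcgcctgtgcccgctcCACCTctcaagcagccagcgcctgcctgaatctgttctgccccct

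The AGR2 match began 45 bases after the start, within the transcribed part, and that of ELF3 began at -120. MUC1 held 2 copies of CACCTG, separated by a single base, with the first base of each at -82 and -75. The CD24 match lay at the far edge, at -249, and the windows of the other 2 CD24 starts held neither motif. Windows were present for 8 of the 9 genes, 21 in all, and TFF3 had none in the table used. CACCTG, which contains CACCT, was found in 6 of these 21 windows, belonging to AGR2, CD24, ELF3, FOXA1 and MUC1, against 20.6% of 35116 windows of the same length over all genes. CACCT was found in 10 of the 21 windows and in 51.6% of all windows. In both counts the 2 MUC1 windows, which overlap and hold the same sites, are counted separately. The motif is short and a match is a description of these letters alone, with no binding measured.

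In the stable knockdown 7 of the 34 probe sets exceeded their control by 2-fold or more and 0 fell short of it by as much. All 6 probe sets of CD24 and 1 of the 2 of AGR2 made up the 7, so they stand for 2 genes. Over all 29214 measured probe sets with 1 symbol, 2.5% were this far above control and 2.13% this far below it, or 1.84% and 1.56% without the filter on level. In the transient knockdown 0 of the 34 were 2-fold or more above control and 1, of AGR2, as far below it, against 0.0685% and 0.175% of all measured probe sets, or 0.0511% and 0.131% without the filter. The median difference of the 34 was 0.17 in the stable pair and 0.14 in the transient pair, beside -0.01 and -0.02 over all measured probe sets. Above 0 were 23 of the 34 in the stable pair and 22 in the transient pair. Over all measured probe sets these shares were 48.0% and 45.7%. Higher in both pairs were 16 of the 34 and lower in both 5. Of opposite sign were 13, of which 7 were higher and 6 lower in the stable pair. Signs in both pairs together were not counted over all probe sets, so no result is read from them. Probe sets of the same gene share their target, so these are counts of probe sets and not of independent genes. Because the genes were chosen with earlier results known, the shares over all probe sets give no test of these counts.

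**Figure D1:**
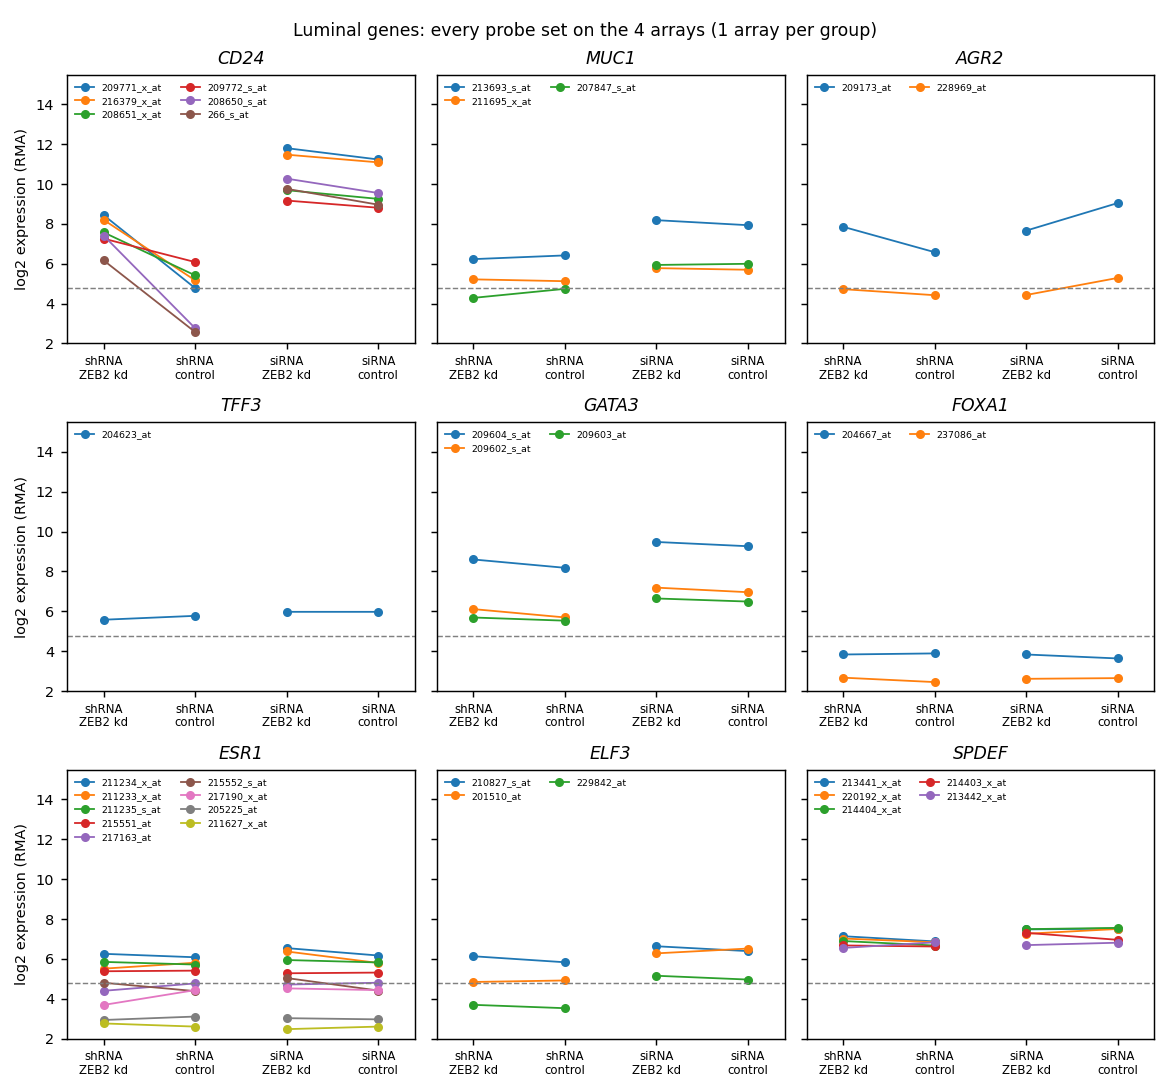
Log2 expression of every probe set of the 9 genes (colours) on the 4 arrays, with knockdown (kd) left of its control and a line joining each pair. The dashed line is the filter level of 4.77. CD24 spans the widest range, AGR2 slopes opposite ways in the pairs, and both FOXA1 probe sets lie under the dashed line throughout.

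CD24, the surface glycoprotein whose absence together with high CD44 is used to mark stem-like breast cancer cells, gave the widest differences of the 9 genes. Its brightest probe set, 209771_x_at, read 8.44 in the shRNA knockdown and 4.78 in the shRNA control, and 11.80 in the siRNA knockdown and 11.24 in the siRNA control. Probe set 208650_s_at read 7.42 and 2.77 on the knockdown and control arrays of the stable pair, and 10.27 and 9.55 on those of the transient pair. The order of the 4 arrays was the same for all 6 CD24 probe sets: siRNA knockdown highest, then siRNA control, then shRNA knockdown, and the shRNA control lowest. In the stable pair the 6 differences ran from 1.18 for 209772_s_at, which is 2.26-fold, to 4.65 for 208650_s_at, which is 25.1-fold. In the transient pair they ran from 0.36 to 0.80, or 1.28-fold to 1.74-fold. The shRNA control lay under the filter level on 208650_s_at and on 266_s_at, at 2.77 and 2.57, so the size of those differences depends on the dim end of the scale. Probe sets without cross-hybridising names, 208650_s_at, 209772_s_at and 266_s_at, differed by 4.65, 1.18 and 3.60 in the stable pair and by 0.72, 0.36 and 0.80 in the transient pair. CD24 has pseudogenes of near-identical sequence, so which copies each probe set reads is uncertain.

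At least 1.5-fold higher in both pairs were 2 of the 34 probe sets, 208650_s_at and 266_s_at of CD24, against 0.161% of all measured probe sets. The 2 pairs share no array. The siRNA control was above the shRNA control by 2.73 to 6.79 over the 6 CD24 probe sets, on each of them more than the difference within either pair. It was above the shRNA knockdown by 1.55 to 2.88, which on 5 of the 6 was less than the difference within the stable pair. The shRNA knockdown stood between its own control and the transfected cultures on every CD24 probe set. The control arrays also enter the knockdown differences, so the gap between controls is not separate evidence for either.

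MUC1, the membrane mucin, had no such difference between knockdown and control. Its brightest probe set, 213693_s_at, read 6.23 in the shRNA knockdown and 6.42 in its control, and 8.19 in the siRNA knockdown and 7.94 in its control. Probe set 207847_s_at read 4.29 and 4.74 on the knockdown and control arrays of the stable pair, both under the filter level, and neither siRNA array was under 5.94. Over its 3 probe sets the differences lay between -0.45 and 0.09 in the stable pair and between -0.06 and 0.25 in the transient pair. Both siRNA arrays were above both shRNA arrays on each of the 3, and the siRNA control exceeded the shRNA control by 0.57 to 1.52.

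AGR2, the endoplasmic reticulum disulphide isomerase, differed in opposite directions in the pairs. Probe set 209173_at read 7.86 in the shRNA knockdown and 6.58 in the shRNA control, a difference of 1.28 or 2.42-fold. On the transient arrays it read 7.67 in the siRNA knockdown and 9.05 in the siRNA control, a difference of -1.38, with the knockdown 2.61-fold lower. The knockdown arrays stood close together, 0.19 apart, between controls that lay 2.47 apart. The second probe set, 228969_at, had the same signs with smaller sizes, 0.30 in the stable pair and -0.86 in the transient pair. It read 4.73 in the shRNA knockdown and 4.42 in its control, and 4.43 in the siRNA knockdown and 5.29 in its control, so 3 of its 4 values were under the filter level. At least 1.5-fold in opposite directions was 1 of the 34 probe sets, 209173_at, against 0.455% of all measured probe sets. TFF3, the trefoil peptide that AGR2-expressing secretory cells also release, had 1 probe set, which read 5.58 in the shRNA knockdown and 5.77 in its control, and 5.97 on both siRNA arrays. Its difference was -0.20 in the stable pair and 0.00 in the transient pair, where its sign turned with the scaling.

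**Figure D2:**
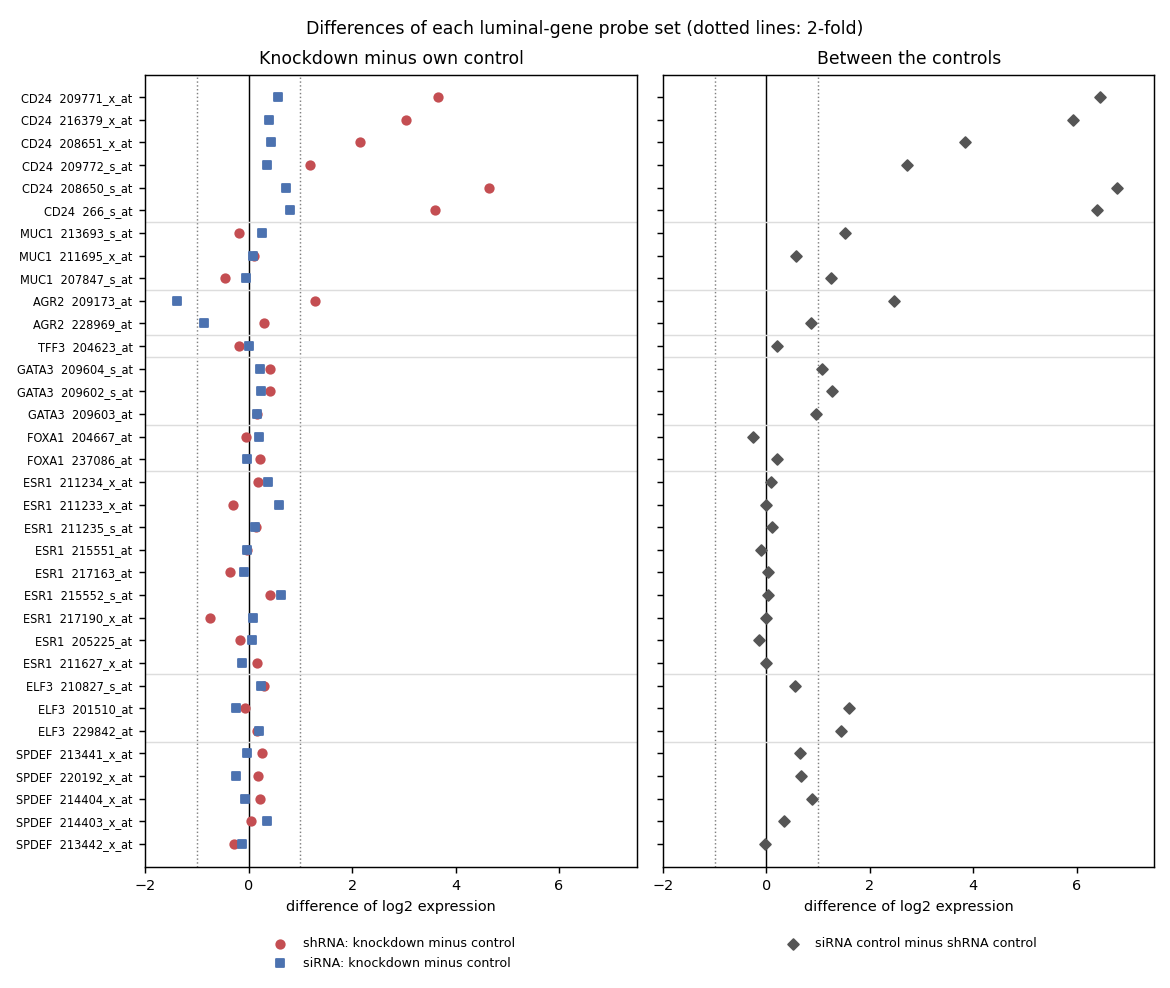
Left, knockdown minus control in log2 units for each of the 34 probe sets, as red circles for the stable pair and blue squares for the transient pair. Right, siRNA control minus shRNA control. The dotted lines mark 2-fold. CD24 lies right of 2-fold in the stable pair on all 6 probe sets, and in the right panel CD24, MUC1, AGR2, GATA3, ELF3 and 4 of the 5 SPDEF probe sets lie above 0.

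GATA3, the zinc-finger factor that maintains luminal fate, was the transcription factor of the 5 with the same sign on all probe sets and both pairs, with small sizes. Its brightest probe set, 209604_s_at, read 8.60 in the shRNA knockdown and 8.18 in its control, and 9.48 in the siRNA knockdown and 9.27 in its control. Over its 3 probe sets the differences were 0.16 to 0.42 in the stable pair and 0.15 to 0.23 in the transient pair, none of them reaching 1.5-fold. They are to be read beside the standard deviation over all measured probe sets, 0.50 in the stable pair and 0.25 in the transient pair. The siRNA control exceeded the shRNA control by 0.96 to 1.27.

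ESR1, the oestrogen receptor, had 9 probe sets with mixed signs, 4 above 0 and 5 below 0 in the stable pair and 6 above 0 and 3 below 0 in the transient pair. On 205225_at it read 2.93 in the shRNA knockdown and 3.10 in its control, and 3.02 in the siRNA knockdown and 2.96 in its control, between percentiles 8.5 and 11.1 of all probe sets of each array. Its brightest probe set, the cross-hybridising 211234_x_at, read 6.25 in the shRNA knockdown and 6.08 in its control, and 6.54 in the siRNA knockdown and 6.17 in its control. The largest ESR1 difference in size was -0.74 on 217190_x_at in the stable pair, a probe set under the filter level on every array, at 3.69 in the shRNA knockdown and 4.43 in its control, against 4.52 in the siRNA knockdown and 4.43 in its control. The largest positive difference in each pair was that of 215552_s_at, which was at 4.80 in the shRNA knockdown and 4.38 in its control, and 5.04 in the siRNA knockdown and 4.41 in its control. These are differences of 0.42 and 0.63, and both controls were under the filter level. Between the controls the 9 ESR1 probe sets differed by -0.14 to 0.11.

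FOXA1, the pioneer factor, stayed under the filter level on every array. Its probe set 204667_at read 3.83 in the shRNA knockdown and 3.89 in its control, and 3.83 in the siRNA knockdown and 3.63 in its control. The other, 237086_at, lay between 2.45 and 2.67. No direction is read from either.

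ELF3, an ETS factor of simple epithelia, differed little within the pairs and more between methods. Its brightest probe set, 210827_s_at, read 6.13 in the shRNA knockdown and 5.83 in its control, and 6.63 in the siRNA knockdown and 6.39 in its control. Probe set 201510_at read 4.84 and 4.91 on the knockdown and control arrays of the stable pair, and 6.28 and 6.52 on those of the transient pair. The differences lay between -0.08 and 0.30 in the stable pair and between -0.24 and 0.24 in the transient pair, with 201510_at below 0 in both and the other 2 probe sets above 0 in both. The siRNA control exceeded the shRNA control by 0.56, 1.44 and 1.60 over the 3 probe sets. The 1.44 was that of 229842_at, which reached the filter level only on the siRNA arrays. It read 3.69 and 3.52 on the knockdown and control arrays of the stable pair, and 5.15 and 4.96 on those of the transient pair.

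SPDEF, the ETS factor of secretory cells, was read by 5 probe sets, all with cross-hybridising names. Its brightest, 213441_x_at, read 7.14 in the shRNA knockdown and 6.88 in its control, and 7.48 in the siRNA knockdown and 7.52 in its control. In the stable pair 4 were above 0 and 1 below, between -0.28 and 0.26. In the transient pair 1 was above 0 and 4 below, between -0.24 and 0.35, and 2 of the 4 turned above 0 with quantile normalization. The control gap was -0.02 to 0.88.

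Between the 2 control cultures, siRNA control minus shRNA control, 13 of the 34 probe sets were 2-fold or more higher and 0 as much lower, against 9.11% and 10.1% of all measured probe sets, or 6.68% and 7.38% without the filter. They belonged to CD24 with 6, to ELF3, GATA3 and MUC1 with 2 each, and to AGR2 with 1. Of these, 229842_at of ELF3 and 207847_s_at of MUC1 reached the filter level only on the siRNA arrays. Above 0 were 28 of the 34, 5 were below 0 and 1 was equal, while 48.1% of all measured probe sets were above 0. With at least 1 other scaling, 211233_x_at and 211627_x_at of ESR1 and 213442_x_at of SPDEF turned above 0. The median was 0.65, beside -0.03 over all measured probe sets. On 21 of the 34 both siRNA arrays stood above both shRNA arrays, and on 1 both stood below, against 33.9% and 35% of all measured probe sets. The log2 levels of the 4 leukocyte markers summed to 17.6 in the shRNA knockdown and 19.3 in its control, and to 20.8 in the siRNA knockdown and 21.0 in its control. Single markers went opposite ways: CD14 and LYZ were higher on both siRNA arrays than on both shRNA arrays, and PTPRC and CD3E were lower. The 5 stromal and endothelial markers summed to 28.6 in the shRNA knockdown and 29.8 in its control, and to 30.8 in the siRNA knockdown and 29.7 in its control, so their methods overlapped. Of these 5 COL3A1 was under the filter level on all arrays, and the part of such markers in the luminal differences was not tested. All 4 cultures are labelled as MDA-MB-231 alone, so these sums are levels of such genes and no measure of other cell types. Within the line, fewer cells expressing a gene and less RNA per cell cannot be told apart in bulk RNA.

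A common effect of both knockdowns was tested with limma over all 29214 measured probe sets, with the method as a block. It treats the 2 methods as replicates and leaves 1 residual degree of freedom. For CD24 the mean difference was 2.12 ± 0.81 (SE) on 209771_x_at and 2.20 ± 0.73 on 266_s_at, and their adjusted p in limma was 0.962 each. For AGR2 on 209173_at it was -0.05 ± 0.70, with an adjusted p of 1 in limma. GATA3 on 209604_s_at gave 0.32 ± 0.18 and an adjusted p of 0.962 in limma. None of the 29 luminal probe sets passed, nor did any other probe set, a share of 0% in each direction. At an unadjusted p under 0.05 limma gave 3 of the 29, which were 209772_s_at and 266_s_at of CD24 and 215552_s_at of ESR1, and 822 of all, or 2.81%. The 2 of CD24 read 1 gene. Probe set 215552_s_at reached the filter level only on the knockdown arrays, at 4.80 and 5.04, so it was tested only because it was higher there. No result is read from these 3 against that share. ZEB2 itself, at -2.82 ± 0.19 on its brightest probe set, had an adjusted p of 0.962 in limma, so a miss of the threshold does not show that a gene stayed the same.

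On the brightest probe set only CD24, with 7.03, and AGR2, with 2.47, of the 9 genes spanned at least 2 log2 units over the 4 arrays, and the 3 genes with the nearest profile were sought for each among 15082 genes. The measure was the root mean square distance between levels centred on their own mean over the 4 arrays, so it is a description over 4 points. The nearest to AGR2 were EHD3 at 0.139, the endothelial lipase gene LIPG at 0.200 and ASB2 at 0.255. LIPG read 7.22 in the shRNA knockdown and 5.76 in its control, and 7.28 in the siRNA knockdown and 8.15 in its control, between the controls on both knockdown arrays as AGR2 was. The nearest to CD24 were the pseudogene ZBED10P at 0.517, the lymphocyte receptor gene SLAMF7 at 0.532 and LUM, which encodes the matrix proteoglycan lumican, at 0.554. LUM read 6.80 in the shRNA knockdown and 2.92 in its control, and 8.71 in the siRNA knockdown and 8.99 in its control. SLAMF7 and LUM were lower in the siRNA knockdown than in its control, by -0.02 and -0.28, where CD24 was higher by 0.57.

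**Figure D3:**
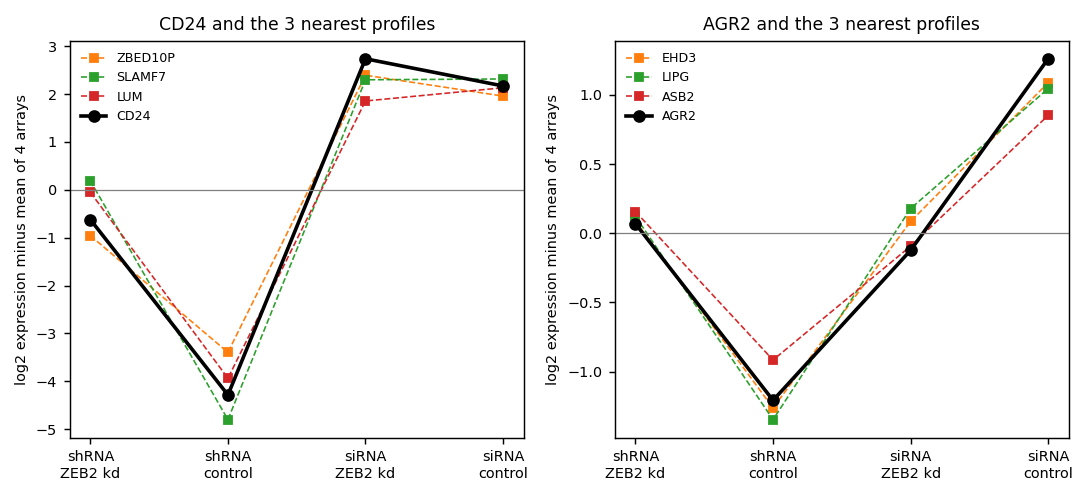
Log2 expression minus the mean of the 4 arrays for CD24 and AGR2 (black) and the 3 genes with the nearest profile to each (dashed), by array, with knockdown (kd) left of its control. For AGR2 and its neighbours both knockdown arrays lie between the shRNA control, lowest, and the siRNA control, highest.

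Other genes of the same biology were described by their brightest probe set, for which 2.39% of 15082 measured genes lay 2-fold or more above control and 2.08% as far below it in the stable pair, and 0.0464% and 0.126% in the transient pair. No gene in the 4 lists that follow reached 2-fold in the transient pair. Of 22 other luminal genes 15 were measured, with 8 higher and 7 lower in the stable pair (median 0.11) and 6 higher and 9 lower in the transient pair (median -0.02). Over all genes the medians were -0.02 in both pairs. At least 2-fold in the stable pair were ERBB3, a receptor of the EGF receptor family, at 1.87, the adhesion molecule gene EPCAM at 1.39, and in the other direction the tight junction gene CLDN7 at -1.25. In the transient pair EPCAM differed by 0.60, with 9.07 in the siRNA knockdown and 8.47 in its control. EPCAM was thus at least 1.5-fold higher in both pairs, as 2 CD24 probe sets were. CLDN7 differed by 0.13 in the transient pair. ERBB3 read 6.76 in the shRNA knockdown and 4.89 in its control, and 7.49 in the siRNA knockdown and 7.23 in its control, though the mean of its 5 probe sets gave 0.65 in the stable pair.

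Genes of the oestrogen receptor pathway, 15 of 18 measured, had 5 higher and 10 lower in the stable pair (median -0.20) and 8 higher and 7 lower in the transient pair (median 0.05). Only NRIP1, a co-repressor of nuclear receptors, reached 2-fold in either pair, at 1.14 in the stable pair, with 8.70 in the shRNA knockdown and 7.56 in its control, and 9.78 in the siRNA knockdown and 9.82 in its control. Secretory and mucin genes, 20 of 25 measured, had 7 higher, 12 lower and 1 equal in the stable pair (median -0.06) and 4 higher and 16 lower in the transient pair (median -0.10), with none at 2-fold in either. The AGR2 paralog gene AGR3 was under the filter level on every array. Paralogs of the lineage factors, 13 of 15 measured, had 4 higher and 9 lower in the stable pair (median -0.09) and 8 higher and 5 lower in the transient pair (median 0.08). Among them EHF, an epithelial ETS factor related to ELF3, read 9.91 in the shRNA knockdown and 11.31 in its control, and 10.35 in the siRNA knockdown and 10.67 in its control, differences of -1.40 and -0.32. ETS2 differed by 1.02 in the stable and 0.13 in the transient pair. Between the controls 10.8% of all genes were 2-fold or more higher and 4.99% as much lower, with a median of 0.06. By the same measure the paralogs had 3 higher and 0 lower (median 0.64), and the other luminal genes 2 higher and 1 lower (median 0.17). The oestrogen receptor pathway had 2 higher and 2 lower (median 0.18), and the secretory and mucin genes 4 higher and 1 lower (median 0.06). These counts depend on the probe set taken. As the mean of its probe sets EHF differed by -2.37 in place of -0.63, IL6ST by -1.19 in place of 0.64, and GREB1 by 0.61 in place of -0.07. With probe sets averaged, the shares over all genes were 7.63% higher and 5.87% lower.

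**Figure D4:**
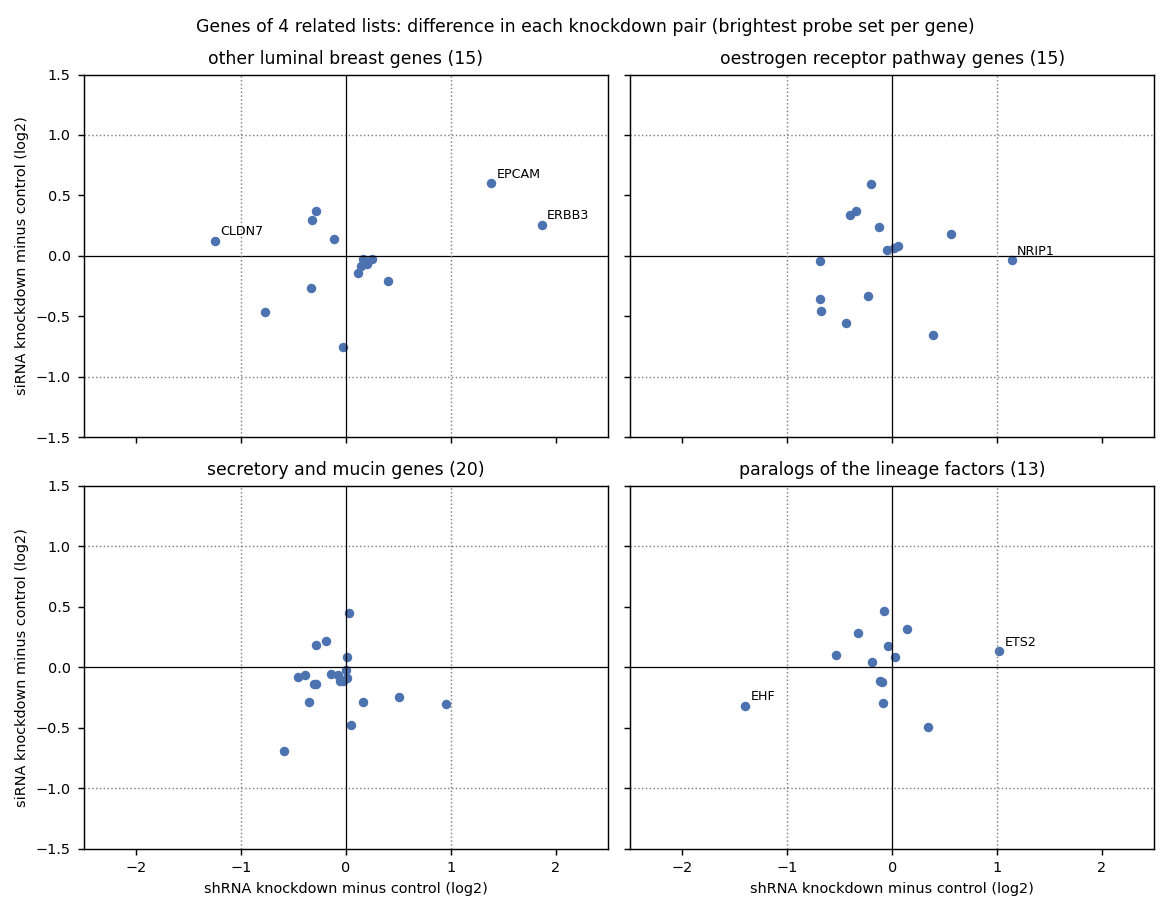
Knockdown minus control in log2 units, stable pair on the horizontal and transient pair on the vertical axis, for the measured genes of 4 related lists. The dotted lines mark 2-fold. The labelled genes, ERBB3, EPCAM, CLDN7, NRIP1, EHF and ETS2, are those at 2-fold in either pair.

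Cell state markers were counted the same way. Of 12 mesenchymal markers measured, 5 were higher and 7 lower in each pair, with LOX at 2.36 and -0.54 and PLAUR at -1.11 and -0.26. Of 6 basal markers measured, 4 were higher and 2 lower in the stable pair and 3 and 3 in the transient pair, with the keratin gene KRT15 at -2.04 and -0.995 and TRIM29 at 1.30 and 0.15. Of 7 leukocyte and stromal markers measured, 1 was higher and 6 lower in the stable pair, with LYZ at -1.19 between 2 values under the filter level, and 6 were higher and 1 lower in the transient pair. Between the controls 4 of the 6 basal markers were 2-fold or more higher and 1 as much lower (median 1.15), 2 and 0 of the 12 mesenchymal markers (median 0.20), and 1 and 0 of the 7 leukocyte and stromal markers (median 0.33).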

How the data were processed

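Per the submitters' processing notes, the authors ran RMA from the affy package (versions not given in the sources used here) and deposited log2 values per probe set. RMA forces the arrays to share 1 distribution, so a change in total RNA per cell is hidden; at equal rank the 4 arrays were at most 0.0805 from their mean. Gene names came from the platform annotation: of 54675 probe sets 41097 carried 1 symbol, 1801 several and 11777 none in the table used. No scanner files were used, so detection per probe was not analysed here.

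Differences were taken between deposited values, and calls made at 2-fold, with 1 array per group and no test within a pair. The common effect was fitted with limma 3.58.1 in R 4.3.3 (lmFit, eBayes with trend, 2-sided, Benjamini-Hochberg at 0.05 over all 29214 probe sets measured) with the method as a block. This step and the counting were tested on simulated data. The labels do not describe the cultures of the 2 methods as replicates, and the p-values rest on how the methods differ, which may be technical. Genes were named by rule: every luminal gene, ZEB2, up to 4 genes at 2-fold per list, and 3 nearest profiles per gene spanning 2 log2 units. Genes and lists were chosen with earlier results of these data known. Figures used matplotlib 3.10.9. Promoters came from RefSeq.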

Additional observations from a re-analysis of the deposited data

Results flagged for a closer look

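AGR2, which encodes the disulphide isomerase of mucin-secreting cells, was at least 1.5-fold apart from control in opposite directions in the 2 knockdown pairs. On 209173_at the difference was 1.28 in the stable pair and -1.38 in the transient pair. Each pair gave 1 difference, from 1 knockdown array and 1 control array. The shRNA and siRNA knockdowns read 7.86 and 7.67, between the shRNA control at 6.58 and the siRNA control at 9.05. The difference between the pairs was not tested, since each has 1 array per group.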

How the results depend on the processing

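The number of luminal probe sets at 2-fold depended on how probe sets were summarised. Averaged over each gene's probe sets, 1 of 8 genes was called higher in the stable pair and 5 of 8 between the controls. The shares of all measured genes were 1.84% and 7.63%. With the brightest probe set per gene, 2 and 4 of the 8 were called, against 2.39% and 10.8% of all measured genes. Both count genes in place of probe sets, which lowers them by construction. Without cross-hybridising probe sets 4 of 18 were called higher in the stable pair, against 2.56% of all such probe sets. With them it was 7 of 29. The 3 called probe sets left out were those of CD24 with cross-hybridising names. At 1.5-fold 3 were higher and 2 lower in the transient pair, against 0.948% and 2.02% of all measured probe sets. Of these, 215552_s_at of ESR1 reached the filter level only on the knockdown arrays. Probe set 228969_at of AGR2, also among them, reached it only on the siRNA control array. At 3-fold 0 were lower in the transient pair, against 0.024%, and 8 were higher between the controls, against 3.48%. Averaging its probe sets brought AGR2 to 0.79 in the stable pair, short of 2-fold, and ELF3 to 1.20 between the controls. The other alternatives were no filter, a 60th percentile filter, a filter on mean level, arrays centred on their medians, cyclic loess and quantile normalization. None of them moved a count of luminal probe sets at 2-fold by over 1.5 times. The limma count of luminal probe sets was 0 under all 12 alternatives, with 0 to 7 at an unadjusted p under 0.05. Each of the 3 other scalings gave 7 of 29 at that unadjusted p in limma. Over all probe sets it was 993 of 29204 with median centring, 990 of 29206 with quantile normalization and 1003 of 29213 with cyclic loess. The 3 other scalings moved a luminal difference by at most 0.0719. Leaving out a replicate was not possible with 1 array per group. The limma fit pairs each knockdown with the control of its method. Without that block limma also called 0 luminal probe sets. At an unadjusted p under 0.05 limma then gave 0 luminal probe sets in place of 3, and 41 in place of 822 over all. Differences of dim probe sets are limited by signal over background, which was not analysed here.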
